A study of Mus musculus with 960 samples.

Results

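The windows described here are the stretches of open chromatin at 6 genes of the Myc and Mad network in a mouse breast tumour: Myc, Mycn, Max, Mxd1, Mxi1 and Mnt. The 6 genes were chosen with earlier results of these data known. Their windows were then taken by position alone, as every window in or at most 20 kb from a gene. For Myc every window within 1 Mb was taken. This gave 72 of the 50000 windows in the list. Of these, 42 belonged to Myc, 1 to Mycn, 4 to Max, 2 to Mxd1, 12 to Mxi1 and 11 to Mnt. A window is a stretch of 500 bp centred on a summit of a called peak, that is, a local high point of the reads that Tn5 transposase left. A called peak can have several summits.

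The cells came from a breast tumour of the PyMT mouse, whose transgene (polyoma middle T antigen under the MMTV promoter) drives tumours of the mammary epithelium, and no treatment, animal, strain background or age is given in the labels. Cells were fixed, permeabilised, stained, transposed in bulk and sorted 1 per well into 960 wells on 10 plates. On 8 plates the antibodies were against EpCAM, found on the surface of epithelial cells, and HIF1a, the part of hypoxia-inducible factor that oxygen controls. On the remaining 2 plates they were against EpCAM and CD45, found on white blood cells. The authors called the windows on pooled single cells, and the sources do not state if that pool held wells stained for CD45. The list is therefore 1 sample without replicates, the stains cannot be compared in it, and a gene has windows or has none. It holds no read count, so the depth behind a window is unknown. All values below are counts and positions, no test between groups was possible, and intervals are exact 95% binomial intervals that cover counting error only.

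Myc and Mycn encode transcription factors of the basic helix-loop-helix leucine zipper class, which bind DNA only after pairing with Max, and the preferred site of the pair is the E-box CACGTG. Mxd1, Mxi1 and Mnt pair with Max as well and sit on the same letters, but they bring the Sin3 corepressors and histone deacetylases, so the network sets growth genes between activation and repression. In mammary epithelium Myc is known as a driver of proliferation and is often amplified in breast cancer.

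All 6 members had at least 1 window within 1 kb of a start site (100%, interval 54.1 to 100), against 52.2% of 22342 protein-coding genes. Every member also had a CpG-rich start site, here GC of at least 50% and an observed to expected CpG ratio of at least 0.6 in the 500 bp on each side. Among the 10780 genes of that kind the share was 84.4%, and among the 11562 genes without one it was 22.2%, so the presence of a window at all 6 lay close to what start sites of this base composition showed in general. The members differed in how many windows they had. Myc had 7 start-site windows, Mnt 6, Mxi1 4, and Mycn, Max and Mxd1 1 each, where the median protein-coding gene had 1 and the highest had 14.

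Of all genes, 45 had as many start-site windows as Myc or more, Myc included, and 36 of them lay among the genes with a CpG-rich start. The share of genes with as many or more was 0.497% for Mnt and 3.51% for Mxi1. Among genes with a CpG-rich start it was 0.863% for Mnt and 6.14% for Mxi1. These 3 genes also have several annotated start sites, 5 for Myc, 2 for Mnt and 3 for Mxi1, and at the outermost start alone 5, 3 and 2 windows remained. For Mnt the count also fell to 3 with start sites within 500 bp. At the outermost start alone 49.9% of all protein-coding genes had a window, and how the members' counts rank there was not worked out.

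**Figure D1:**
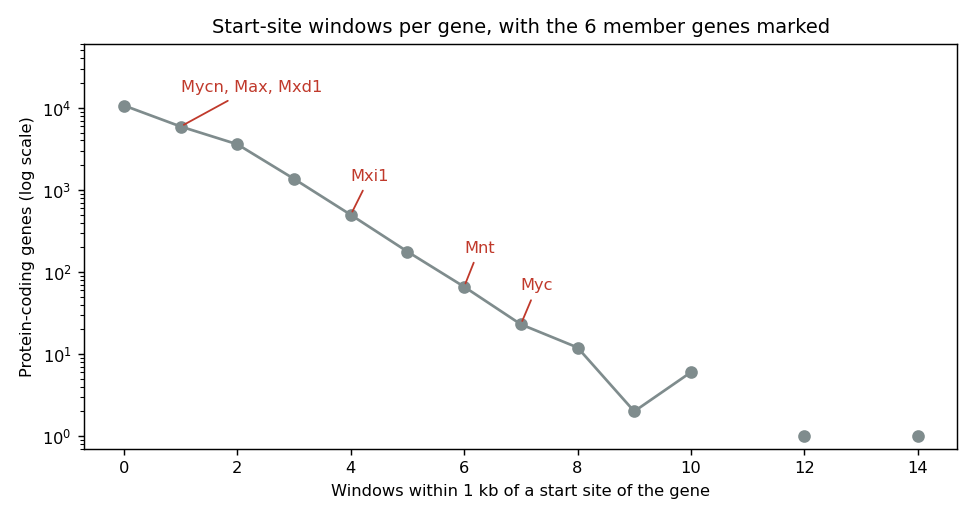
Number of protein-coding genes (log scale) by their number of windows within 1 kb of a start site, with the members marked in red. Mycn, Max and Mxd1 sit with the 5921 genes that had 1 window, while Myc, at 7, is in the tail that 45 of 22342 genes reached.

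The sequence under the summit nearest the outermost start site of each member is shown, since these are the stretches that carry the start-site result. Each is 150 bases of mm9 on the strand of the gene, 5′ to 3′, and capitals mark the SP/KLF letters GGGCGG or CCGCCC and the E-box CACGTG.
Myc, chr15:61816806-61816955, + strand: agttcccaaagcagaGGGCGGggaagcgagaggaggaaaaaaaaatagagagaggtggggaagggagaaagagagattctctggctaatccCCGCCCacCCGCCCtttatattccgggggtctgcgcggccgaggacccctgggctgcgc
Mycn, chr12:12949283-12949432, - strand: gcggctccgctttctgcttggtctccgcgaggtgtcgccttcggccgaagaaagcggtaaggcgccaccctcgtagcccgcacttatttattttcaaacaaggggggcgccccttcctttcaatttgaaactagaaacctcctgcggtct
Max, chr12:78063298-78063447, - strand: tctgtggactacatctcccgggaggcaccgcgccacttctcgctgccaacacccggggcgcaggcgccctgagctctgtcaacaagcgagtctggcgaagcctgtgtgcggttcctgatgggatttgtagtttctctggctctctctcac
Mxd1, chr6:86619308-86619457, - strand: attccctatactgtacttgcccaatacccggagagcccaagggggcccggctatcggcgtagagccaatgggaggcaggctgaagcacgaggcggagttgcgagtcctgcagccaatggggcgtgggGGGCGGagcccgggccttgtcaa
Mxi1, chr19:53384856-53385005, + strand: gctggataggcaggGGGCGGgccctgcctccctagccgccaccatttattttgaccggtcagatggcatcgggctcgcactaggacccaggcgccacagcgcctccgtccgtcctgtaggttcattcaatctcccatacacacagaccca
Mnt, chr11:74644170-74644319, + strand: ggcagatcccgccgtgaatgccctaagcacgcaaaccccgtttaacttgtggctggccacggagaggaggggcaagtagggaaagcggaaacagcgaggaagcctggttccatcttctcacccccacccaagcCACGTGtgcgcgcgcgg
The Myc stretch held 3 SP/KLF matches, those of Mxd1 and Mxi1 1 each and those of Mycn and Max none. The E-box fell in the Mnt stretch, 0.117 kb upstream of the start.

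Myc lies on chr15:61816946-61821929 of mm9, on the + strand, and 9 windows from 4 called peaks lay in that stretch or at most 20 kb away, all between 1888 bp upstream and 4050 bp downstream of the outermost start. One called peak kept 4 windows upstream of and across that start, with summits 0.844, 0.558, 0.275 and 0.041 kb before it (chr15:61815852-61816351, chr15:61816138-61816637, chr15:61816421-61816920 and chr15:61816655-61817154). A second kept 3 windows inside the gene, 2 in intron 1 (chr15:61817793-61818292 and chr15:61818487-61818986) and 1 in exon 2 (chr15:61819203-61819702). These surround the internal start sites of shorter annotated transcripts, from which their summits lay 0.546, 0.148 and 0.476 kb away. The remaining 2 called peaks kept 1 window each, chr15:61814808-61815307 upstream and chr15:61820746-61821245 on the coding part of exon 3. Open chromatin at Myc was thus a compact block of windows over promoter and gene body, and no E-box was found in any of the 9. Within 20 kb, 91.8% of protein-coding genes had fewer windows than Myc.

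**Figure D2:**
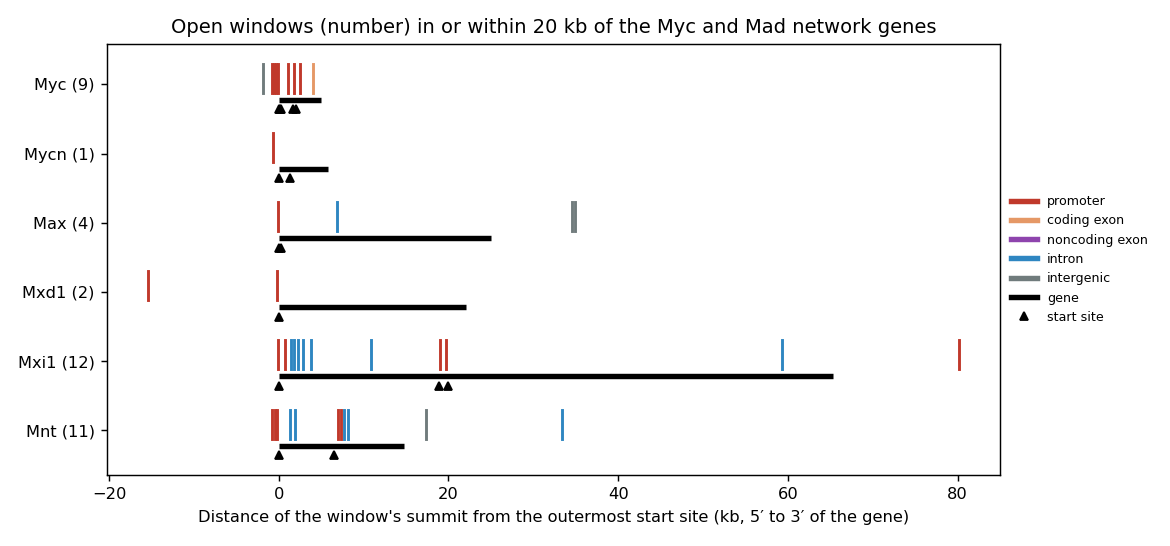
Each coloured line is the summit of 1 window, placed by its distance in kb from the outermost start site of the gene and coloured by position class; black bars are the genes and triangles their annotated start sites. The 9 windows of Myc form a block around the gene, the 12 of Mxi1 and the 11 of Mnt spread into introns, and Mycn has 1.

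Around Myc, 42 windows from 34 called peaks lay within 1 Mb. The stretch has no other protein-coding gene: the next protein-coding start sites lay 1064 kb upstream and 1819 kb downstream. Against all genes the count was unremarkable, with 31.4% of genes below it and a median of 59. Only 41 genes had no other protein-coding start within 1 Mb; their median was 1 window, and Myc had the most, 42.

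Upstream of the 20 kb stretch lay 14 windows from 13 called peaks, in 7 islands when summits within 20 kb are joined. The summits lay 827.2 kb, 590.2 kb, 462.1 to 444.2 kb, 396.3 kb, 366.2 to 364.4 kb, 277.3 to 267.9 kb and 45.9 kb before the start. All 14 were intergenic. The called peak 590.2 kb upstream kept 2 windows (chr15:61226502-61227001 and chr15:61226766-61227265), the only one on that side that kept more than 1. Between the islands at 267.9 kb and 45.9 kb lay 0.222 Mb without a kept window.

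Downstream, 16 of the 19 windows beyond 20 kb had their summit in Pvt1, a long noncoding RNA gene on the + strand (chr15:61869542-62209651) that begins 52.6 kb after the Myc start and is often co-amplified with Myc in tumours. Pvt1 had 4.70 windows per 100 kb, against 1.89 over the 20 chromosomes, gaps included, and 1.43 in the upstream part beyond 20 kb of Myc. Windows of that upstream part were all intergenic, and no density over other gene bodies is given here to set beside Pvt1. One window lay at the Pvt1 start, with its summit 15 bp from the nearest of the annotated Pvt1 start sites (chr15:61869343-61869842), 14 in introns and 1 on a noncoding exon. They bunched at 91.3 to 94.3 kb, where 3 windows lay, and at 219.1 to 227.1 kb, where 6 lay. Each bunch held a called peak that kept 2 windows, chr15:61910702-61911201 with chr15:61910946-61911445 in the first and chr15:62037526-62038025 with chr15:62037966-62038465 in the second. After Pvt1 only 3 windows followed, at 407.3, 584.1 and 917.9 kb.

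**Figure D3:**
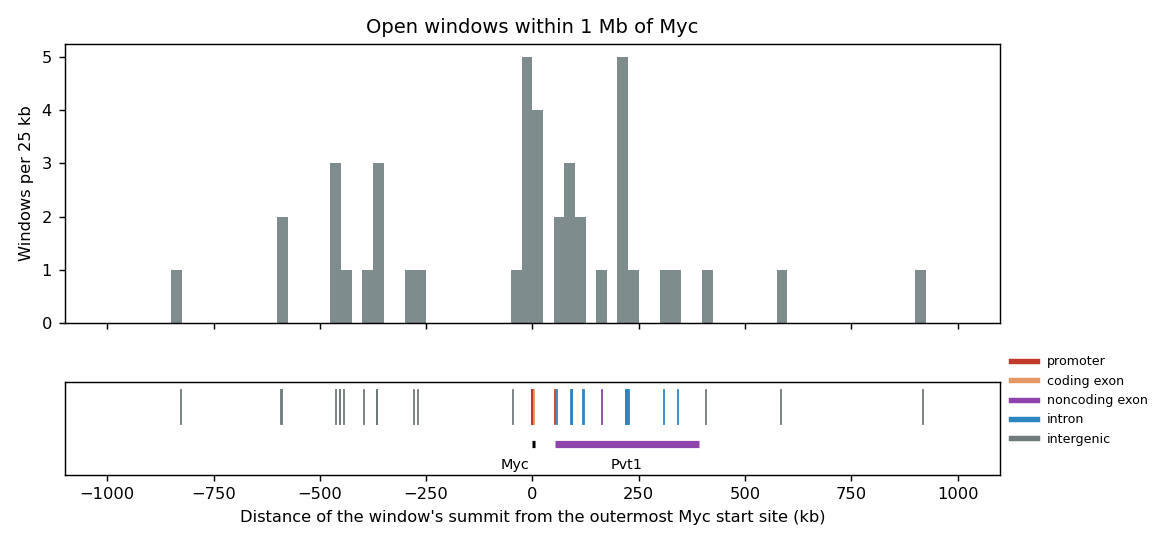
Windows per 25 kb (top) and each window's summit (bottom, coloured by position class) within 1 Mb of Myc, by distance in kb from its outermost start, with Myc and Pvt1 as bars. The tallest bars stand at Myc and at 219.1 to 227.1 kb inside Pvt1, and the upstream windows form separate islands of 1 to 4.

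Names of the windows carry the number of the called peak, in order along each chromosome, so a number missing from the list marks a call that was not kept, by its rank or by another filter. Over the whole list 38400 of 109284 numbers were kept (35.1%), and from the first to the last window around Myc 34 of 80 (42.5%, where the median gene had 41.2% within 1 Mb). The calls from 45.9 kb upstream of Myc to the start of Pvt1 were an unbroken run of 6 kept numbers; of all kept numbers, 5.22% were in a run at least that long. Between the nearest kept windows outside 20 kb on each side, all 4 numbers at Myc were kept, 6 of 8 at Mnt, 7 of 17 at Mxi1, 3 of 9 at Max, 2 of 7 at Mxd1 and 1 of 6 at Mycn. These numbers run up to the nearest kept window, so some of the missing calls may lie more than 20 kb from the gene.

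Mycn, the paralogue best known from neuroblastoma and embryonic tissue, lies on chr12:12942902-12948720 on the - strand. Its single window, chr12:12949108-12949607, had its summit 0.638 kb upstream of the outermost start, and no window overlapped the gene itself. Of all protein-coding genes, 27.6% had fewer windows within 20 kb. The closest kept windows outside the 20 kb lay 134769 bp beyond the upstream end of the gene and 31131 bp beyond its other end. The pair of paralogues therefore differed in number of windows, 9 against 1 within 20 kb.

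Max encodes the shared partner of the whole network and lies on chr12:78038256-78063235 on the - strand. One window covered its start (chr12:78063123-78063622, summit 0.138 kb upstream) and 1 lay in intron 1 (chr12:78056141-78056640, summit 6844 bp after the start). Beyond the 3′ end a called peak kept 2 windows (chr12:78028062-78028561 and chr12:78028445-78028944), whose letters show that a further summit of this call was not kept. The start-site window of Max held 2 E-boxes, one on the outermost start site itself and one 0.275 kb upstream, and the intronic and one of the downstream windows held 1 each.

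Mxd1, the first Mad protein described and one known to rise in differentiating cells, lies on chr6:86597038-86619153 on the - strand. Its start had 1 window (chr6:86619133-86619632, summit 0.230 kb upstream), the one richest in GC among the single start-site windows of the members, at 72.0%. The second window, 15409 bp upstream, lay 46 bp from the start of Snrnp27, a spliceosome gene, and so is at another promoter.

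Mxi1, a Mad protein also known as a target of hypoxia-inducible factor, lies on chr19:53384996-53450300 on the + strand and had 12 windows from 7 called peaks within 20 kb, more than 96.5% of protein-coding genes. Windows sat at its outermost start (summits 0.032 kb before and 0.689 kb after it) and at its internal starts (0.107 kb after the nearer of these and 0.275 kb before the farther). Between them one called peak kept 5 windows in intron 1, with summits 1450, 1752, 2256, 2828 and 3766 bp after the outermost start (chr19:53386196 to 53389011), the largest number kept by any called peak of the 6 genes. The other windows lay in intron 1 at 10874 bp after the outermost start, in intron 4, and at the start of the neighbour Smndc1, another spliceosome gene.

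Mnt, the network's broadly expressed repressor, lies on chr11:74644422-74659227 on the + strand and had 11 windows from 6 called peaks within 20 kb, more than 95.2% of genes. One called peak kept 3 windows upstream of the start, with summits 0.805, 0.442 and 0.177 kb before it, and a second kept 2 in intron 1, 1362 and 1963 bp after it. Another kept 3 in intron 4, with summits 0.409, 0.795 and 1.12 kb after an internal start site. A further window lay in the same intron, 1 lay in the sequence downstream of the gene, and 1 lay 33386 bp after the start in the neighbouring gene. All 6 called peak numbers of this stretch followed one another without a gap.

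By position, 22 of the 72 windows were promoter windows (summit within 1 kb of any start site), 27 intronic, 21 intergenic, 1 on a coding exon and 1 on a noncoding exon. The promoter share of 30.6% (interval 20.2 to 42.5) compares with 37.4% of all windows, and the intron share of 37.5% (26.4 to 49.7) with 30.0%. Both intervals include the value over all windows. Of the 22, 3 lay at the starts of Pvt1, Snrnp27 and Smndc1. Promoter windows of the members had a median GC of 61.8% against 61.6% for all promoter windows, and the other member windows 52.0% against 50.4%.

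The E-box CACGTG, its own reverse complement, is the site that the proteins of this network bind, and 8 of the 72 windows held it (11.1%, interval 4.92 to 20.7) against 9.88% of all 50000. These were windows of Max, Mnt and the Pvt1 introns near Myc. Each is shown with 27 bases on either side, on the strand of the member gene, with the E-box in capitals.
Max, on the outermost start, chr12:78063206-78063265, - strand: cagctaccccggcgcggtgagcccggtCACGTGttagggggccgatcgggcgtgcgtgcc
Max, 0.275 kb upstream, chr12:78063481-78063540, - strand: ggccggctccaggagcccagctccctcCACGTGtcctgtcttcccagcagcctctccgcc
Max, intron 1, chr12:78056457-78056516, - strand: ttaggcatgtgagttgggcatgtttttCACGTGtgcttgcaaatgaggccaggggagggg
Max, downstream, chr12:78028673-78028732, - strand: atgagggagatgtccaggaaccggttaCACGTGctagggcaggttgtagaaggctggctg
Mnt, 0.117 kb upstream, chr11:74644276-74644335, + strand: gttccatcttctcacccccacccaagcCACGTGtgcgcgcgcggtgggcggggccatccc
Mnt, intron 1, chr11:74645777-74645836, + strand: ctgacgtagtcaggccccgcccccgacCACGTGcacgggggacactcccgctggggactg
Myc, 221.5 kb downstream in Pvt1, chr15:62038413-62038472, + strand: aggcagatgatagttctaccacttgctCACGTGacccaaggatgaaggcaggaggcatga
A further E-box lay 94.0 kb downstream of Myc, in the called peak whose 2 windows overlap, and is printed with its neighbouring AP-1 matches. A match is a set of letters and not a measured binding event.

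AP-1, the Fos and Jun dimer induced by growth signals, has the letters TGANTCA, and 15 of the 72 windows held a match (20.8%, interval 12.2 to 32.0) against 14.8% of all windows. None of the 22 promoter windows held it (interval 0 to 15.4), and 8.27% of all promoter windows did. Of the 34 windows around Myc that were not promoter windows, 11 held it (32.4%, interval 17.4 to 50.5), against 18.7% of all windows of this kind. They were 4 of the 14 upstream windows, 5 of the 16 in Pvt1 and 2 of the 3 beyond it.

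The called peak 94.0 kb after the Myc start carried both sites, 1 E-box and 3 AP-1 matches, in capitals here in that order.
Pvt1 intron, chr15:61910942-61911157, + strand: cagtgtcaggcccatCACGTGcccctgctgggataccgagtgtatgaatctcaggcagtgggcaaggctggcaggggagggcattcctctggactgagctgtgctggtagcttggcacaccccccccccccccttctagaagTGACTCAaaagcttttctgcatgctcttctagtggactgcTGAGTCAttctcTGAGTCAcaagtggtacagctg
Other AP-1 matches stood alone or in pairs, and 1 pair in Pvt1 and 3 matches from the island 462.1 to 444.2 kb upstream, one from each of its called peaks with a match, are printed to show the variation around the core.
Pvt1, 58.6 kb downstream, chr15:61875482-61875572, + strand: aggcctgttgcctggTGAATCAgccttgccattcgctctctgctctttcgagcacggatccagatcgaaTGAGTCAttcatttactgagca
453.1 kb upstream, chr15:61363796-61363832, + strand: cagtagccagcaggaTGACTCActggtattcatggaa
452.5 kb upstream, chr15:61364471-61364507, + strand: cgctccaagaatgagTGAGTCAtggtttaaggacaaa
444.4 kb upstream, chr15:61372572-61372608, + strand: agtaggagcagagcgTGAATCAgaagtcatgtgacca

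The SP/KLF letters GGGCGG, bound by factors of GC-rich promoters, were in 20 of the 22 promoter windows (90.9%, interval 70.8 to 98.9) against 69.3% of all promoter windows, and in 15 of the 50 other windows (30.0%, interval 17.9 to 44.6) against 18.1%. Windows of the same called peak overlap and share letters, so these counts are not independent. The HIF core, ACGTG or GCGTG, which lies inside every E-box of the form CACGTG, was in 45 windows (62.5%, interval 50.3 to 73.6) against 58.7% of all. The TEAD letters GGAATG, the site of the Hippo pathway's DNA-binding factors, were in 22 (30.6%, interval 20.2 to 42.5) against 24.7%. Every value over all windows given here fell inside its interval except that for SP/KLF at promoters. Further motifs were counted and are not listed, and the intervals were not adjusted for their number, so this exception is a description only.

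**Figure D4:**
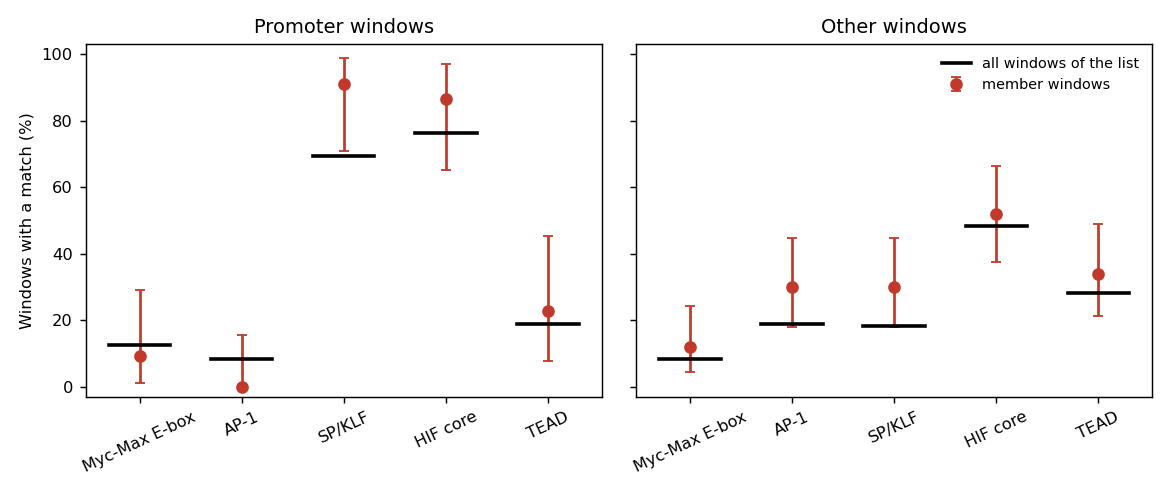
Percent of windows with a match to each consensus, for the 22 promoter windows (left) and the 50 other windows (right) of the members in red with exact 95% intervals, and for all windows of that class as black bars. The red intervals include the black bars except for SP/KLF at promoters, 90.9% against 69.3%.

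The wider network was described from lists of genes with textbook roles. The 7 further dimer partners and relatives, Mycl1, Mxd3, Mxd4, Mga, Mlx, Mlxip and Mlxipl, all had a start-site window, with 2 each at Mxd4, Mlx and Mlxipl and 1 at the others. All 7 of these genes, 15 of the 16 cofactors and all 9 stability genes counted here have a CpG-rich start, so their counts too are to be read beside the 84.4% of such genes with a start-site window. Of the 16 cofactors, 15 had one. Among them Sin3a, the scaffold that Mad proteins recruit, had 7, Cdk9, the kinase that releases paused polymerase, had 4, and Trrap and Ruvbl2, parts of the acetylation complexes that Myc recruits, had 2 each; Kat2a had none, with the nearest summit 2170 bp from a start. Of the 9 genes counted here that set the stability of Myc protein, 8 had one, Gsk3b with 3, Fbxw7, Skp2, Huwe1 and Ppp2r5a with 2 each, and Usp28, Usp36 and Pim1 with 1 each. Aurka, a kinase that stabilises Mycn protein, had none, and its nearest summit lay 15066 bp away.

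Of the 27 genes known to be activated by Myc, 24 had a start-site window (88.9%, interval 70.8 to 97.6), led by Ldha, the lactate dehydrogenase subunit, with 5, Hk2, a hexokinase, with 4, and Nme2 and Fbl with 3 each. Those without one were Tert, the telomerase catalytic subunit, Shmt2, a mitochondrial enzyme of one-carbon metabolism, and Prmt5, an arginine methyltransferase. All 6 genes of the list of repressed targets had one: Cdkn2a had 4, Cdkn1b and Ndrg1 3 each, Cdkn1a and Gadd45a 2 each and Cdkn2b 1. Cdkn2a is not a clear member of this list, since its Arf product is known to be induced by Myc in mouse cells. The shares over these lists are to be read beside the 84.4% of genes with a CpG-rich start, since 23 of the 27 activated and all 6 repressed genes have such a start.

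E-boxes were counted in the start-site windows of each list. Of the 24 activated targets with such a window, 17 had an E-box in one (70.8%, interval 48.9 to 87.4), against 20.3% of the 11664 protein-coding genes with such a window and 21.5% of those with a CpG-rich start. Counting each window once, 21 of 46 held it (45.7%, interval 30.9 to 61.0) against 12.7% of 18732. Among genes with a single start-site window it was 6 of 11, against 14.9%. Several of these genes are textbook examples of Myc binding at an E-box, so the list was not independent of these letters, and Nme1 and Nme2 share 1 window. For the members themselves the count was 2 of 6, Max and Mnt, for the further network 3 of 7 (Mxd3, Mlx and Mlxip), for the cofactors 4 of 15, for the stability genes 2 of 8 (Usp28 and Usp36) and for the repressed targets 1 of 6, Cdkn2a. Their intervals all include 20.3%.

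The E-boxes nearest a start site in the first 4 activated targets of the list that hold one are shown on the strand of the gene, as 30 bases each with CACGTG in capitals; these genes were chosen after their values were seen.
Ncl (nucleolin), chr1:88255393-88255422, - strand: cgcctccccgcgCACGTGctctggtgcgcg
Npm1 (nucleophosmin), chr11:33062371-33062400, - strand: aacccctaggagCACGTGgttgcCACGTGg
Cad (pyrimidine synthesis), chr5:31357218-31357247, + strand: cgcgcagcgagcCACGTGgaccaactccgg
Ldha (lactate dehydrogenase), chr7:54101114-54101143, + strand: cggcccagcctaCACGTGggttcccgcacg
The Ncl and Npm1 sites lay 0.623 and 0.687 kb after a start, that of Cad 0.048 kb after and that of Ldha 0.081 kb before. Npm1 had 2 matches within the 30 bases.

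**Figure D5:**
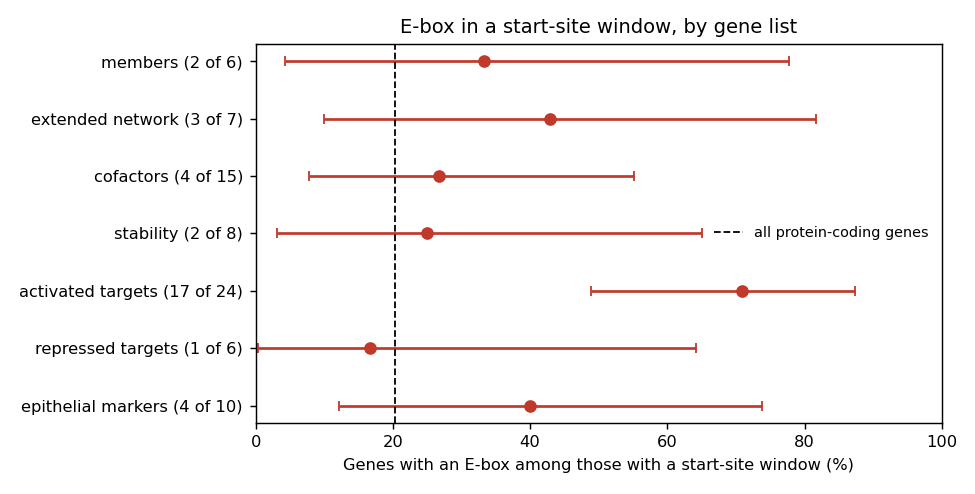
Percent of genes with an E-box in a start-site window, among the genes of each list that have such a window, with exact 95% intervals; the dashed line is the value over all protein-coding genes, 20.3%. The activated targets, at 70.8%, are the list whose interval lies wholly above the line.

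As a check of the labelled tissue, all 10 epithelial markers had a start-site window (interval 69.2 to 100), from 1 at Krt19 and Cldn4 to 6 at Gata3, although only 3 of them have a CpG-rich start. None of the 8 blood-derived markers had one (interval 0 to 36.9), Ptprc (CD45) included, and none of the 4 endothelial markers (interval 0 to 60.2). No blood-derived marker and 1 endothelial marker has a CpG-rich start, and both intervals include the 22.2% of genes without such a start that had a window, so these counts alone do not set the lists apart from other genes of that kind. Of the 5 fibroblast markers only Pdgfra had a start-site window. Away from start sites, Pecam1 had 5 windows in the gene, and Kdr and Csf1r had 1 each. The other blood-derived and endothelial markers had no window in the gene. The marker lists were chosen with earlier results of these data known, so this check is not independent of the data. In a pool of cells, fewer cells of a type and fewer open sites per cell cannot be told apart.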

How the data were processed

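Open chromatin was measured by single-cell ATAC-seq in 960 wells. Per the labels and methods, the authors mapped reads to mm9 with Bowtie2 2.1.0, removed duplicates with Picard 1.79 and called summits with MACS2, whose version is not given in the sources used here (the submitters' notes list hg19 too), on pooled cells. The deposited list gives the positions of 50000 windows of 500 bp, without a score or count, so depth is unknown. Genes came from GENCODE M1 on the same build (chromosomes 1 to 19 and X; 45993 start sites of coding transcripts). A start-site window has any base within 1 kb of a start site; its position class was read at the summit. Motif letters were searched on both strands. Cofactor and target lists longer than 10 genes are named by the 4 genes with the most start-site windows (ties by list order) and the first 4 without any. Members and lists were chosen with earlier results of these data known. Scripts used Python 3.11.15, scipy 1.17.1 and pysam 0.24.0 and were tested on simulated windows. Alternatives are given in the closing section. One further gene of the stability list is not reported here and is left out of the counts.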

Additional observations from a re-analysis of the deposited data

How the results depend on the processing

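Under the alternatives, 92 values stayed within 1.5 times the count, or within the interval of the share, and 25 did not. The members with a start-site window stayed at 6 with start sites within 500 bp or 2 kb, with distances from the summit and with the outermost start alone. The list has no score, so no stricter set could be drawn by confidence. Counts were instead repeated on calls with at least 2 kept summits. Several summits in a call do not measure how sure it is, so a gene lost here has not failed a check of confidence. Mycn, Max and Mxd1 each had their only start-site window in a call with 1 kept window, so they could not remain in this set. There the members' windows fell from 72 to 30, those around Myc to 13, and members with a start-site window to 3 (Myc, Mxi1 and Mnt), while the share of all protein-coding genes fell to 21.6%. In the same set 2 genes of the further network, 6 cofactors, 3 stability genes and 11 activated targets had a start-site window. Among genes with such a window, an E-box in it was left in 1 of 3 members and 9 of 11 activated targets. The share over all genes with an E-box in this set was not counted. With the outermost start alone 0 fibroblast markers had a window. Reading motifs in the central 200 bp, which shortens the sequence, gave 9.72% for AP-1, 26.4% for SP/KLF, 43.1% for the HIF core and 15.3% for TEAD, against 6.89%, 25.0%, 34.6% and 11.0% of all windows; an E-box remained in 1 member and in 9 of 24 activated targets (37.5%, against 10.8% of all genes). With any base of the window deciding the class, 2 windows lay on coding exons. The E-box alternatives were chosen after seeing the data. No paired analysis was possible because the list is 1 pooled sample. Without read counts, how strongly each window was open could not be compared, and a gene without a kept window may still be open below the cutoff.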
